A study of Punica granatum with 8 samples.

Results

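A set of 52 genes was at or near 0 in some pomegranate hairy root lines and expressed in others, with overlapping ranges in the overexpression and control lines. The genes were selected on their measured values: a member had a normalized count of at least 30 (called on here) in 2 or more of the 8 libraries and of at most 1 (called off) in 2 or more. Genes whose 5 overexpression libraries all lay above or all lay below the 3 control libraries were left out. Of the 18831 genes listed, 68 met both thresholds and 16 of these were dropped as split by construct, 6 with the overexpression libraries above and 10 with them below. The 52 that remained made up 0.276% of the listed genes and 0.420% of the 12377 genes that were on in at least 2 libraries. Because these values chose the genes, their levels are given below as a description.

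The libraries came from young hairy roots of pomegranate (Punica granatum) cultivar PG116-17, induced on seedlings with Agrobacterium rhizogenes strain MSU440 and grown for 3 months in a greenhouse. The 3 control libraries (EV) carried the empty binary vector with its green fluorescent protein marker, and the 3 PgMyb308-like libraries carried that vector with PgMyb308-like, an R2R3 Myb gene, driven by the constitutive CaMV 35S promoter. The 2 libraries labelled line 1712 overexpressed PgMyb308, which the labels tie to another sequence record, and their promoter and vector are not given in the sources used here. Each fluorescent root was a transformation event of its own, so insertion site, seedling and root cannot be told apart within a group.

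Hairy roots form when A. rhizogenes moves a piece of its root-inducing plasmid, and with it the cloned transgene, into plant cells, and a whole root then grows out of a transformed cell. The place of insertion differs from root to root. R2R3 Mybs of subgroup S4, to which PgMyb308-like belongs, are known in other plants mainly as regulators of the phenylpropanoid pathway, which leads to lignin and flavonoids. TranSeq libraries read only the 3′ end of a transcript, so that a long gene does not collect more reads than a short one. RNA was taken from whole roots, and fewer cells of a type cannot be told apart from less RNA per cell. The annotation used here gives identifiers, types and positions without product names, so the roles of the 52 genes are not described and the labelled tissue was not checked against root markers.

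Library totals ran from 1263321 counts in PgMyb308-like replicate 1 to 3976951 in line 1712 replicate 1. At these depths a normalized count of 30 stood for between 16.5 and 53.1 counts, and the fewest counts behind any on value was 18. A count of 0 allows up to 3 counts, which is a normalized count of 5.46 in the shallowest library and of 1.69 in the deepest, and these limits cover counting error only. The scaling brings the libraries to a like level, and the median over the 12161 genes that had at least 30 in 2 or more libraries and never fell to 1 or below lay between 72.2 and 76.4 in all 8 libraries. PgMyb308-like replicate 1 stood apart from the rest on the first principal component of the other genes, at 103 where the other 7 libraries lay between -60.4 and 45.2. It was also the shallowest library, and the part of depth in its position was not tested.

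Over the 52 genes and 8 libraries there were 416 values, of which 127 were on, 141 were off and 148 lay between. Of the 141 off values 119 rested on 0 counts and 22 on 1 count. A library at 0 counts was found for 51 genes, the exception being LOC116195823, and 41 genes had at least 2 such libraries. The highest value of a gene ran from 35.0 to 1022 with a median of 71.4, and 14 genes reached 100 or more in a library. Against the 3-count limit of the deepest library in which a gene had 0 counts, the highest value was at least 11.3-fold to at least 603-fold higher, with a median of 28.0 over the 51 genes. By the thresholds most genes were not strict switches: 51 of the 52 had at least 1 library between them, and LOC116190000 alone had none. Some in-between values rested on very few counts. The only such value of LOC116205591 was 1.07 (1 count), and that of LOC116202962 was 1.13 (2 counts). Within the 3-count limit these genes cannot be told from strict switches.

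**Figure D1:**
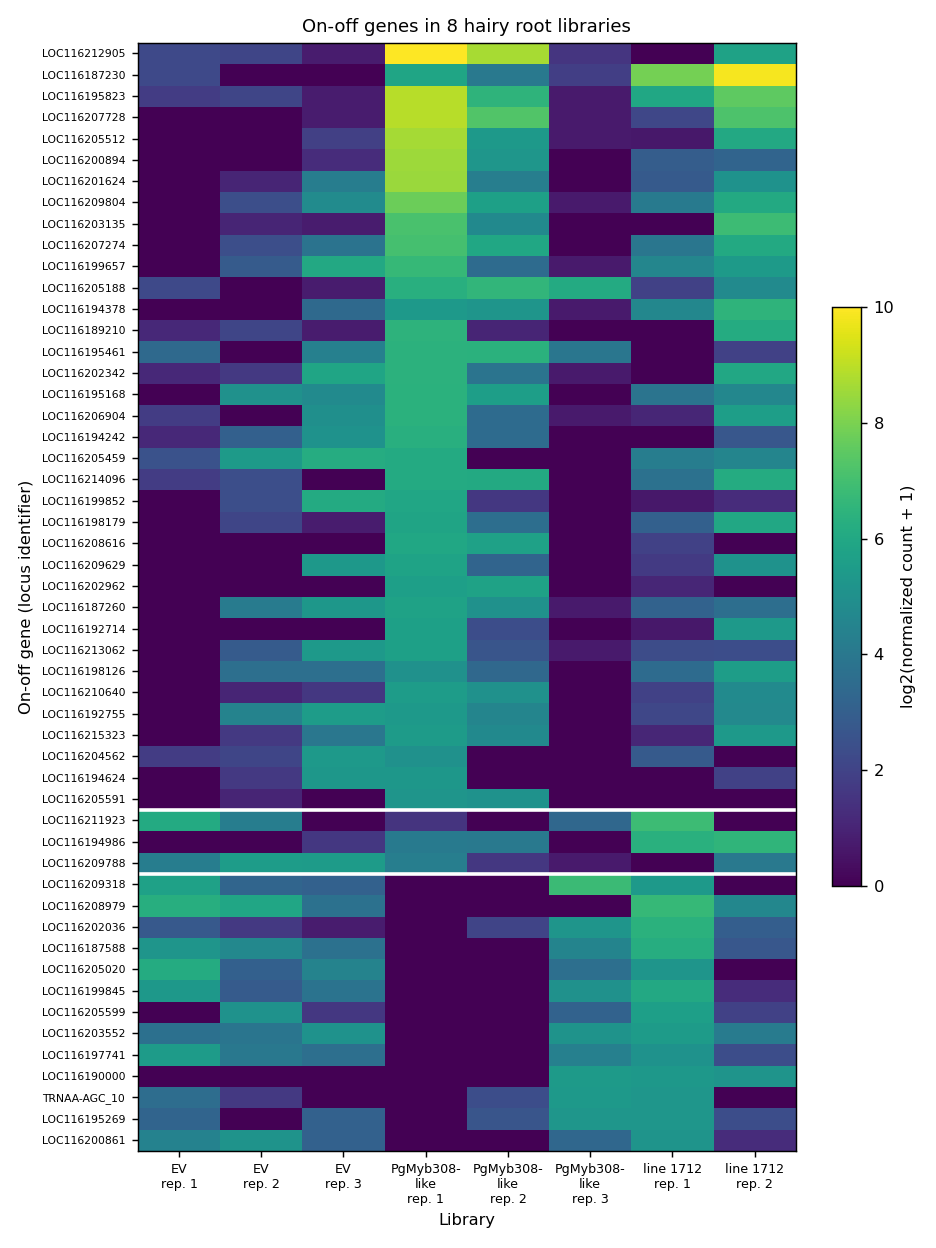
Normalized counts of the 52 on-off genes (rows) in the 8 libraries (columns), shown by colour as log2(normalized count + 1). White lines set apart the 36 genes on in PgMyb308-like replicate 1 at the top, the 3 genes between the thresholds there, and the 13 genes off there at the bottom. The upper block is bright in PgMyb308-like replicates 1 and 2 and line 1712 replicate 2 and dark in EV replicate 1 and PgMyb308-like replicate 3, and the lower block shows the reverse.

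The combination of on, off and in-between states differed for most genes. There were 46 combinations among 52 genes, of which 41 were held by 1 gene and 4 by 2 genes, and the most frequent was held by 3 genes: LOC116198126, LOC116201624 and LOC116215323. These 3 genes were on in PgMyb308-like replicate 1 and line 1712 replicate 2 and off in EV replicate 1 and PgMyb308-like replicate 3. Most genes were on in only a few libraries, 30 of them in 2, 21 in 3 and 1 in 4. Off states were held in 2 libraries by 29 genes, in 3 by 14, in 4 by 4 and in 5 by 5.

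The libraries differed widely in how many of the genes they had on. PgMyb308-like replicate 1 had 36 on, followed by line 1712 replicate 2 with 22, and PgMyb308-like replicate 2 and line 1712 replicate 1 with 17 each. EV replicate 3 had 14 on, PgMyb308-like replicate 3 had 8, EV replicate 1 had 7 and EV replicate 2 had 6. The order by off states was not its mirror image, since EV replicate 2 had 31 genes between the thresholds and PgMyb308-like replicate 1 had 3. PgMyb308-like replicate 3 had the most genes off, 35, and EV replicate 1 had 27. The highest value of a gene fell in PgMyb308-like replicate 1 for 24 of the 52 genes.

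**Figure D2:**
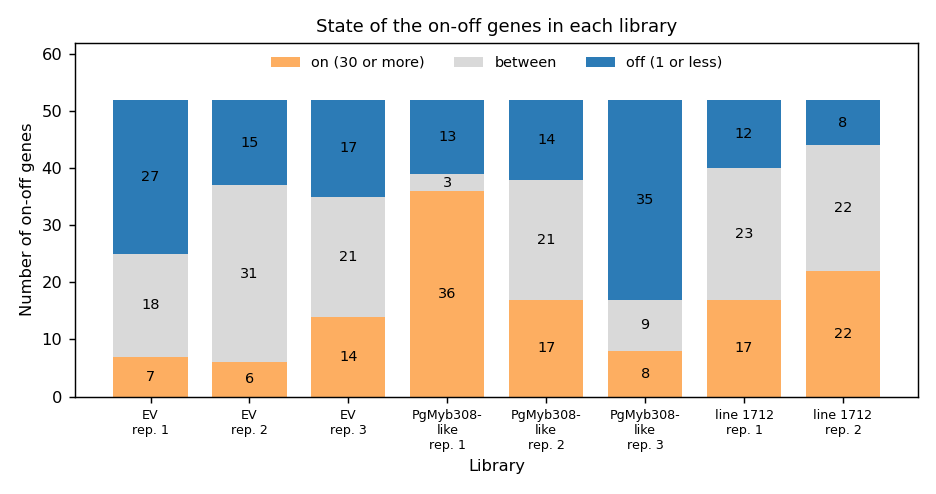
Number of the 52 on-off genes (vertical axis) that were on (normalized count of 30 or more), between the thresholds or off (1 or less) in each of the 8 libraries (horizontal axis). PgMyb308-like replicates 1 and 3 carried the same construct and had 36 and 8 genes on.

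The larger block held the 36 genes that were on in PgMyb308-like replicate 1. Their median normalized count was 69.1 in that library, 37.0 in line 1712 replicate 2, 25.8 in PgMyb308-like replicate 2 and 12.4 in EV replicate 3. It was 3.10 in line 1712 replicate 1, 2.13 in EV replicate 2 and 0 in both EV replicate 1 and PgMyb308-like replicate 3. Each construct group thus had a library among the 4 highest and a library among the 4 lowest. All 36 genes together gave 2883 counts in PgMyb308-like replicate 1 and 144 in PgMyb308-like replicate 3, although the latter was the deeper library, with a total of 3484260.

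The highest single value belonged to LOC116212905, a protein-coding gene on chromosome 7 (23446283 to 23448592). Its normalized counts were 3.61, 3.20 and 0.69 in EV replicates 1 to 3, 1022, 408 and 1.95 in PgMyb308-like replicates 1 to 3, and 0 and 53.0 in line 1712 replicates 1 and 2. PgMyb308-like replicate 3 lay within the range of the EV libraries, while the other PgMyb308-like libraries lay far above it. Behind these values stood 562 counts in PgMyb308-like replicate 1 against 3 in PgMyb308-like replicate 3.

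LOC116207728 on chromosome 5 (6530867 to 6531854) had the same high libraries. Its normalized counts were 0, 0 and 0.69 in the EV libraries, 482, 154 and 0.65 in the PgMyb308-like libraries and 3.39 and 145 in the line 1712 libraries. LOC116205512 on chromosome 4 (4479058 to 4479939) gave 0, 0 and 2.76 in EV, 406, 41.3 and 0.65 in PgMyb308-like and 0.56 and 64.2 in line 1712. In both genes PgMyb308-like replicates 1 and 2 and line 1712 replicate 2 were on, and the other 5 libraries were under 4.

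LOC116195823 on chromosome 1 (5744916 to 5745479), the gene on in 4 libraries, extended this picture to both line 1712 libraries. It had 2.41, 3.20 and 0.69 in EV, 484, 88.8 and 0.65 in PgMyb308-like and 61.0 and 180.0 in line 1712. LOC116187230 on chromosome 8 (20584497 to 20586979) was highest in line 1712, with 237 and 942, against 58.2, 15.5 and 2.60 in PgMyb308-like and 3.61, 0 and 0 in EV. These were the only genes of the 36 that were on in line 1712 replicate 1. The line 1712 libraries did not overlap the EV libraries in either gene, while PgMyb308-like replicate 3 lay inside the EV range in LOC116187230 and at its lower edge in LOC116195823, with 1 count.

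LOC116200894 on chromosome 3 (1675730 to 1676942) was on only in PgMyb308-like replicates 1 and 2, at 375 and 37.15. It was at 0, 0 and 1.38 in EV, 0 in PgMyb308-like replicate 3 and 6.78 and 8.37 in line 1712. LOC116208616, LOC116205591 and the long non-coding RNA gene LOC116202962, chosen after their values were seen, had the same pair of libraries on and stood at 2.82 or below in the other 6. LOC116202962 on chromosome 4 (13483283 to 13484607) had 49.1 and 53.7 in PgMyb308-like replicates 1 and 2, 1.13 in line 1712 replicate 1 and 0 in the other 5 libraries. The 4 genes were thus absent, within the limit of depth, from a PgMyb308-like library that carried the same transgene.

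The other long non-coding RNA gene, LOC116201624 on chromosome 3 (18233493 to 18234207), showed a graded series. It had 0, 1.07 and 18.0 in EV, 362, 18.6 and 0 in PgMyb308-like and 6.21 and 33.5 in line 1712. Members of the most frequent combination at lower levels were LOC116198126 on chromosome 2 (904216 to 905490) and LOC116215323 on chromosome 7 (10735165 to 10737113). LOC116198126 had 0, 11.7 and 11.7 in EV, 32.7, 9.29 and 0 in PgMyb308-like and 10.2 and 46.1 in line 1712. LOC116215323 had 0, 2.13 and 14.5 in EV, 43.6, 25.8 and 0 in PgMyb308-like and 1.13 and 40.5 in line 1712. All 3 genes were at 0 in EV replicate 1 and PgMyb308-like replicate 3, a control and an overexpression library.

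LOC116209804 on chromosome 6 (26093303 to 26094823) and LOC116207274 on chromosome 5 (11082436 to 11083340) shared another combination. LOC116209804 had 0, 4.27 and 27.6 in EV, 215, 50.6 and 0.65 in PgMyb308-like and 15.8 and 65.6 in line 1712. LOC116207274 had 0, 4.27 and 13.1 in EV, 133, 61.9 and 0 in PgMyb308-like and 14.1 and 65.6 in line 1712. The libraries fell in the same order in both genes except for EV replicate 3 and line 1712 replicate 1, which changed places. LOC116203135 on chromosome 4 (29675161 to 29678043), the remaining gene among the 10 of highest value, was high in the same PgMyb308-like library at 140.0 and in line 1712 replicate 2 at 114, had 25.8 in PgMyb308-like replicate 2, and was at 1.07 or below elsewhere.

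A subset of the 36 was also on in a control library. In EV replicate 3, 12 of the 36 genes were on, against 2 in EV replicate 2 and 0 in EV replicate 1. LOC116199852 was on in EV replicate 3 at 68.4 and in PgMyb308-like replicate 1 at 60.0, and stood at 4.27 or below in the other 6 libraries. LOC116194624 had 38.7 and 38.2 in these libraries and 2.79 or below in the other 6. An empty vector line and an overexpression line thus shared the on state of these genes, which other lines of either group lacked.

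The smaller block held 13 genes that were off in PgMyb308-like replicate 1. All had 0 counts there, as the off threshold requires at this depth, where 1 count is a normalized count of 1.82. Their median normalized count was 40.1 in line 1712 replicate 1, 32.5 in PgMyb308-like replicate 3 and 20.45 in EV replicate 1. It was 8.53 in EV replicate 2, 7.60 in EV replicate 3, 4.19 in line 1712 replicate 2 and 0 in PgMyb308-like replicates 1 and 2. The 13 genes together gave 0 counts in PgMyb308-like replicate 1, by that definition, and 12 in PgMyb308-like replicate 2. The deeper PgMyb308-like replicate 3 gave 623, and line 1712 replicate 1, the deepest library, gave 1197. Line 1712 replicate 1 had all 13 on and line 1712 replicate 2 had 1.

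LOC116187588 on chromosome 8 (4712341 to 4713894) and LOC116197741 on chromosome 2 (5821963 to 5824660) shared a combination. LOC116187588 had 36.1, 24.5 and 12.4 in EV, 0, 0 and 22.1 in PgMyb308-like and 73.4 and 5.58 in line 1712. LOC116197741 had 43.3, 14.9 and 11.7 in EV, 0, 0 and 19.5 in PgMyb308-like and 33.3 and 4.19 in line 1712. In both genes PgMyb308-like replicates 1 and 2 were at 0, and the remaining 6 libraries held the transcript at some level.

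LOC116209318 on chromosome 1 (46647594 to 46648409) held both states in PgMyb308-like and in line 1712. It had 51.7, 8.53 and 7.60 in EV, 0, 0 and 110 in PgMyb308-like and 40.1 and 0 in line 1712. Behind the PgMyb308-like values stood 0, 0 and 170 counts, and behind the line 1712 values 71 and 0. This gene and LOC116208979 were the only members that stayed in the set under each of 17 changes to the thresholds, scaling, depth or libraries. Some of these changes only loosen the rule and cannot remove a member.

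LOC116190000, on an unplaced scaffold (82965 to 86299), was the only gene with no in-between library. It had 0 counts in all 3 EV libraries and in PgMyb308-like replicates 1 and 2, and normalized counts of 42.2 in PgMyb308-like replicate 3, 39.5 in line 1712 replicate 1 and 34.9 in line 1712 replicate 2. These rested on 65, 70 and 25 counts. The on level in the 3 libraries that had it ran from 34.9 to 42.2. TRNAA-AGC_10, the only member that was not found in the annotation, was on in PgMyb308-like replicate 3 at 41.6 and line 1712 replicate 1 at 36.7, and was at 0 in EV replicate 3, PgMyb308-like replicate 1 and line 1712 replicate 2.

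**Figure D3:**
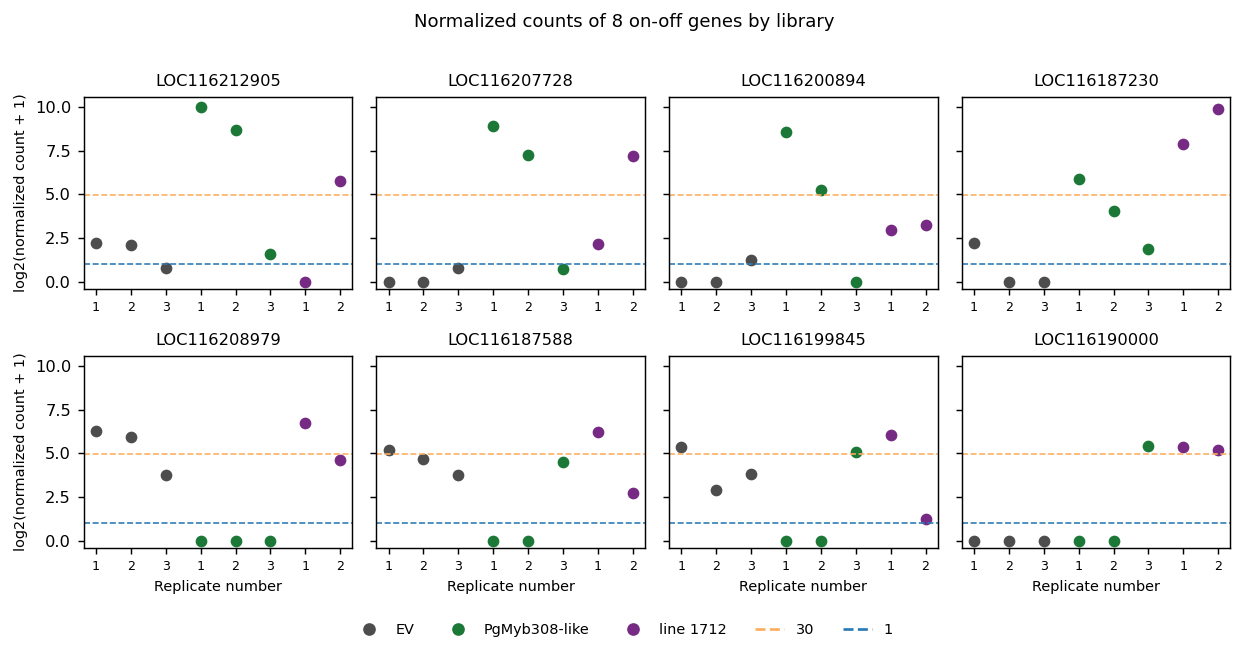
Normalized counts of 8 on-off genes in each library, as log2(normalized count + 1) on the vertical axis, with the libraries of each group by replicate number on the horizontal axis and the group shown by colour. Dashed lines mark the on threshold of 30 and the off threshold of 1. In the upper row PgMyb308-like replicate 1 is on in each gene, at up to 1022 normalized counts in LOC116212905, and in the lower row it is at 0 in each gene.

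The remaining 3 genes lay between the thresholds in PgMyb308-like replicate 1 and were counted in neither block. LOC116211923 had 68.6, 18.1 and 0 in EV, 1.82, 0 and 9.10 in PgMyb308-like and 114 and 0 in line 1712. LOC116194986 was on in both line 1712 libraries, at 80.8 and 93.5, and had 0, 0 and 2.07 in EV and 16.4, 15.5 and 0 in PgMyb308-like. LOC116209788 was on in EV replicates 2 and 3, at 44.8 and 44.2, and at or near 0 in PgMyb308-like replicate 3 and line 1712 replicate 1.

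The profiles of log2(normalized count + 1) ran together within the blocks. Over the 630 pairs of genes within the larger block the median Pearson correlation across the 8 libraries was 0.65 and 96.5% of pairs were positive. Over the 78 pairs within the smaller block it was 0.62 and 100% were positive, and over the 468 pairs between the blocks it was -0.57 with 5.34% positive. Without PgMyb308-like replicate 1, which defined the blocks, the medians over the other 7 libraries were 0.52, 0.50 and -0.41. The genes share libraries and depth, and these values are a description of selected genes.

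Libraries of the same construct were often in opposite states. PgMyb308-like replicates 1 and 3 had 39 of the 52 genes on in the one and off in the other, 32 of them on in replicate 1 and 7 on in replicate 3. This was the highest of all 28 pairs of libraries. PgMyb308-like replicates 1 and 2 differed in 3 genes (86 over all listed genes) and replicates 2 and 3 in 18 (40). The line 1712 libraries had 10 genes in opposite states, and the EV pairs had 2, 2 and 8. Over the 7 pairs within a group the number ran from 2 to 39 with a median of 8, and over the 21 pairs between groups from 2 to 30 with a median of 12. The rule chose the genes by these states and dropped those split by construct, so the numbers are in part set by it and nothing is read from their likeness. Over all listed genes the pairs within a group had 6 to 209 genes in opposite states and the pairs between groups 11 to 206.

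Some libraries of different constructs differed in few of the 52 genes. PgMyb308-like replicate 3 had only 2 genes in the opposite state to EV replicate 1 and 3 to line 1712 replicate 1. Over all listed genes these pairs had 15 and 11. PgMyb308-like replicate 1 had 5 in the opposite state to line 1712 replicate 2. It had 30 to EV replicate 1 and 24 to line 1712 replicate 1. Over all listed genes these pairs had 101, 206 and 146, so the low number of 5 holds for the selected genes only.

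**Figure D4:**
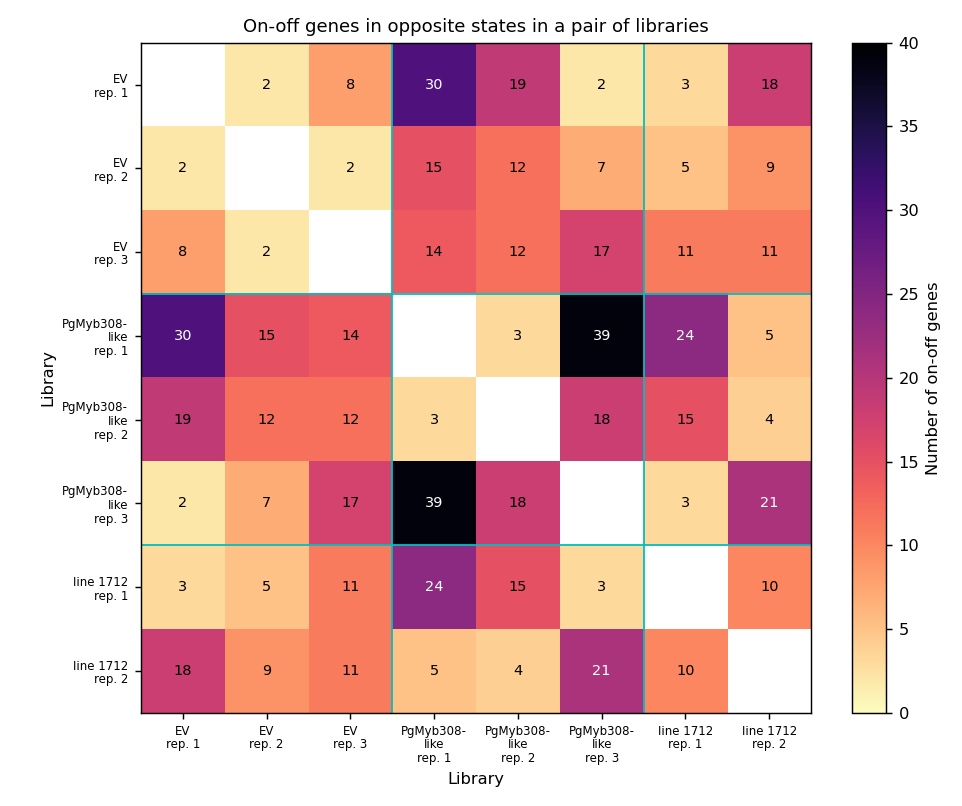
Number of the 52 on-off genes that were on in one library and off in the other, for each pair of the 8 libraries on both axes, with lines between the groups. The number printed in each cell is also its colour, and PgMyb308-like replicates 1 and 3 give the highest, 39.

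Of the 52 genes 43 were both on and off within at least 1 construct group, and 17 within at least 2. The group was PgMyb308-like for 39 genes, EV for 11 and line 1712 for 10, with 0 genes divided in all 3. Over all listed genes the same count was 241 in PgMyb308-like, 38 in EV and 21 in line 1712. Pairs with PgMyb308-like replicate 1, the shallowest library, had 209 and 86 genes in opposite states there, and PgMyb308-like replicates 2 and 3 had 40. Line 1712 had 2 libraries where the other groups had 3, so these counts do not rank the groups. The remaining 9 genes, LOC116187230, LOC116187588, LOC116194986, LOC116195461, LOC116197741, LOC116200861, LOC116205188, LOC116208979 and LOC116209788, did not hold both states in any group. In all EV libraries 0 genes were on, while 1 was on in all PgMyb308-like libraries and 4 in both line 1712 libraries. Off in all libraries of a group were 5 genes in EV, 1 in PgMyb308-like and 1 in line 1712.

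In 11 genes both states were found among the EV libraries, which carry no Myb transgene. They were LOC116187260, LOC116192755, LOC116194624, LOC116195168, LOC116199657, LOC116199852, LOC116205599, LOC116206904, LOC116209629, LOC116211923 and LOC116213062. LOC116199657 had 0, 6.40 and 64.2 in EV replicates 1 to 3, LOC116209629 had 0, 0 and 39.4, and LOC116206904 had 2.41, 0 and 30.4. LOC116211923 ran the other way, with 68.6 in EV replicate 1 and 0 in EV replicate 3. In LOC116195168 and LOC116205599 it was EV replicate 2 that was on, at 32.0 and 33.1, with EV replicate 1 at 0.

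Comparisons between constructs were fitted over all 15957 genes that passed the filter on low counts, and all 52 genes passed. The rule used these libraries, so the counts of calls are printed for completeness and nothing is read from them. By edgeR's quasi-likelihood test, with Benjamini-Hochberg adjusted p under 0.05 and a log2 fold change above 1 in size, 0 of the 52 were called between PgMyb308-like and EV (0.0376% of all genes called), 0 between line 1712 and EV (0.00627%) and 0 between PgMyb308-like and line 1712 (0% of all genes). At an unadjusted p under 0.05 there were 21, 12 and 8 of the 52, where 8.27%, 4.26% and 3.55% of all genes tested had such a p. By DESeq2 5, 2 and 1 were called, where 1.25%, 0.495% and 0.0752% of all genes were. The median standard error of the log2 fold change between PgMyb308-like and EV was 1.60 over the 52 genes and 0.44 over all genes tested.

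Groups did not overlap in 2 of the 52 genes between PgMyb308-like and EV (13.1% of all genes tested), in 14 between line 1712 and EV (20.1%) and in 5 between PgMyb308-like and line 1712 (16.4%). The rule itself removed genes in which all overexpression libraries lay on one side of EV. In the comparison of PgMyb308-like with EV the 2 genes were LOC116205188, higher, and LOC116208979, lower.

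LOC116205188 on chromosome 4 (533730 to 539925) was the only member on in all 3 PgMyb308-like libraries. It had 78.2, 96.0 and 68.2 there, 3.61, 0 and 0.69 in EV and 2.82 and 26.5 in line 1712. Its log2 fold change between PgMyb308-like and EV was 5.84 ± 0.99 (SE), with an adjusted p of 0.0967 by edgeR's quasi-likelihood test and of 3.95e-06 by DESeq2. These tests used the values that chose the gene, so nothing is read from their p-values. The gene overlaps LOC116205187, which is not in the count table, and reads from the shared stretch cannot be assigned to one of them from position alone.

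LOC116208979 on chromosome 5 (12311785 to 12313184) was the only member off in all 3 PgMyb308-like libraries, each with 0 counts. It had 75.8, 59.7 and 12.4 in EV and 104 and 23.7 in line 1712. At the level of the EV libraries 130 counts would have been found in the PgMyb308-like libraries, so that with 3 counts over the group as the limit the gene was at least 43.4-fold lower. Its fitted log2 fold change was -8.74 ± 1.53 (SE), which for a group at 0 depends on the fit and is no bound, with an adjusted p of 0.147 by edgeR and of 1.2e-05 by DESeq2. Between PgMyb308-like and line 1712 the adjusted p was 0.881 by edgeR and 8.52e-05 by DESeq2. The values that chose this gene entered these tests as well, and nothing is read from the p-values.

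The calls moved with 1 library. Without PgMyb308-like replicate 3 edgeR called 7 of the 52 genes between PgMyb308-like and EV (LOC116195823, LOC116200894, LOC116202962, LOC116205188, LOC116207728, LOC116208616 and LOC116212905) and 2 between line 1712 and EV (LOC116187230 and LOC116194986). The calls over all genes rose with them, from 6 and 1 with all libraries to 129 and 17. The library left out had 35 of the 52 genes off and was used by the rule, so nothing is read from these calls. In LOC116187230 the log2 fold change between line 1712 and EV was 9.10 ± 1.38 (SE) with all libraries, with an adjusted p of 0.115 by edgeR and of 0.00108 by DESeq2. Nothing is read from these p-values either, as the same libraries chose the gene.

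The order of the libraries in the larger block was close to their order on the first principal component of the other tested genes. On the first principal component of the 15905 tested genes outside the set, which held 34.6% of their variance, the order from low to high was EV replicate 1 (-60.4), PgMyb308-like replicate 3 (-46.6), line 1712 replicate 1 (-32.7), EV replicate 2 (-32.2), EV replicate 3 (-6.21), line 1712 replicate 2 (29.6), PgMyb308-like replicate 2 (45.2) and PgMyb308-like replicate 1 (103). The median of the 36 genes went from 0 in EV replicate 1 to 69.1 in PgMyb308-like replicate 1 at the ends of this component, and 2 neighbouring pairs of libraries went against its order. Line 1712 replicate 2 had a higher median than PgMyb308-like replicate 2, and line 1712 replicate 1 a higher one than EV replicate 2. The median of the 13 genes was 0 in the 2 libraries at the upper end. PgMyb308-like replicate 1 defined both blocks, and the component's sign was set so that this library was positive. Its values at the upper end are therefore in part set by construction. Over all listed genes 209 genes were in opposite states between PgMyb308-like replicates 1 and 3 and 6, the lowest number of any pair, between EV replicates 2 and 3. Line 1712 replicate 1 and EV replicate 2, the closest pair on the component, had 23. The 8 libraries fall into groups of different constructs, and no correlation is given.

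**Figure D5:**
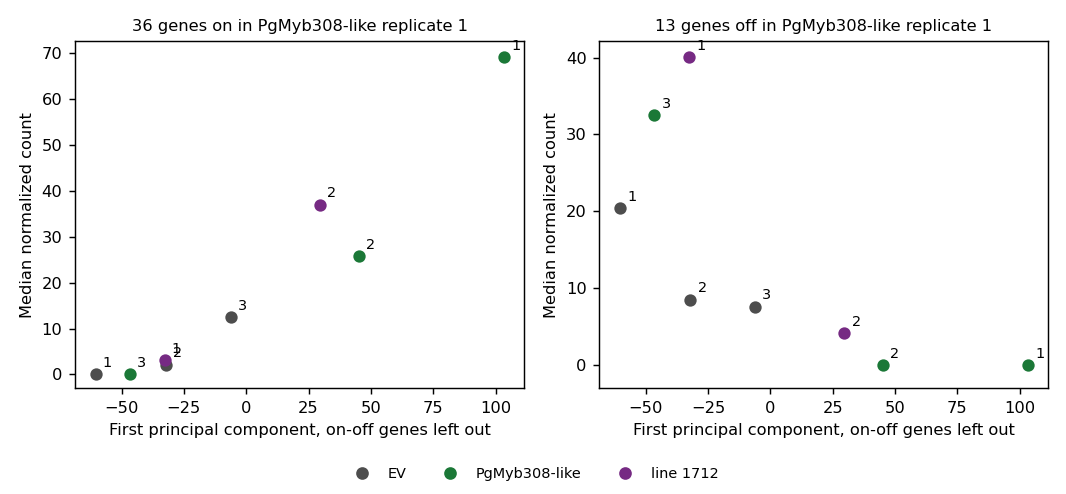
Median normalized count of the 36 genes on (left) and the 13 genes off (right) in PgMyb308-like replicate 1 on the vertical axis, against the position of each library on the first principal component of all other tested genes on the horizontal axis. Points are libraries, coloured by group and numbered by replicate. The left panel goes from 0 at the lowest position to 69.1 at the highest, and the right panel is at 0 for the PgMyb308-like libraries at 45.2 and 103.

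The on-off genes were shorter on the annotation than other expressed genes, a property the rule did not use. The median gene length, introns included, was 1487 bases over the 51 annotated members. It was 3270 bases over the 12161 genes on in 2 or more libraries and off in none (the never-off genes). Over all listed genes with a position it was 3062 bases. Genes under 2000 bases made up 66.7% of the members (34 of 51), 21.0% of the never-off genes and 24.9% of all listed genes. The median was 1304 bases in the larger block and 2094 in the smaller block. The 148 genes that were on in 2 or more libraries and off in exactly 1 lay between, with a median of 2389 bases, and the 16 genes split by construct had 2270 bases. Levels differ between these sets, and the part of level in the difference was not tested.

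Most members, 44 of 51 or 86.3%, had a single annotated transcript, against 66.5% of the never-off genes. The share was 91.7% in the larger block and 66.7% in the smaller block, 78.4% among the 148 genes off in exactly 1 library and 75% among the 16 genes split by construct. Protein-coding genes numbered 49, and 2 were long non-coding RNA genes. The latter made up 3.92%, against 1.41% of the never-off genes and 4.30% of all listed genes.

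The genes were scattered over the genome. Chromosome 4 held 11, chromosome 2 held 8, chromosomes 1 and 3 held 7 each, chromosome 5 held 5 and chromosomes 6, 7 and 8 held 4 each. The share on chromosome 4 was 21.6%, against 15.4% of the never-off genes. Of the 42 pairs of members that followed each other on a chromosome, 2 lay within 100 kb and 0 were neighbours. LOC116194242 and LOC116194624 on chromosome 2 lay 60.6 kb apart and had a correlation of 0.87 across the libraries, both being on in EV replicate 3 and PgMyb308-like replicate 1. LOC116187588 and LOC116189210 on chromosome 8 lay 55.5 kb apart and had a correlation of -0.57, one belonging to the smaller block and the other to the larger.

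The nearest listed gene on each side gave 100 neighbours of the 50 members on numbered chromosomes. Of these, 37 were on in all 8 libraries (37% against 41.1% of the neighbours of never-off genes). At least 1 such neighbour was found for 28 members (56% against 64.9% of never-off genes). The distance to a neighbour had a median of 8653.5 bases, against 4289.5 bases for the never-off genes. The following neighbours were chosen after their values were seen. LOC116214097 lay 200 bases from LOC116214096 and ran from 692 to 965 across the libraries, while LOC116214096 ran from 0 to 69.8. LOC116199936 lay 599 bases from LOC116199845 and ran from 2069 to 3724, while LOC116199845 ran from 0 to 65.0. LOC116207729 lay 503 bases from LOC116207728 and ran from 330 to 468, while LOC116207728 ran from 0 to 482. These neighbours thus had no off state. Their levels had correlations of -0.08, 0.57 and 0.22 with the member beside them. The neighbours on the other side of the same members had correlations of -0.27, 0.70 and 0.75.

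A few neighbours did share the pattern. The correlation with a neighbour across libraries had a median of 0.10, against 0.04 for the never-off genes. Of the 100 neighbours 3 reached 0.9 (3% against 0.548%). The members were chosen for wide swings between libraries and the never-off genes were not, so these shares are not alike. LOC116200895, 3053 bases from LOC116200894, had 1.20, 0 and 1.38 in EV, 686, 170 and 3.90 in PgMyb308-like and 18.6 and 236 in line 1712, with a correlation of 0.91. LOC116207243, 948 bases from LOC116207274, had a correlation of 0.95, and LOC116194627, 2341 bases from LOC116194624, one of 0.995. LOC116194627 was never on. It had 16.6 in EV replicate 3, 16.4 in PgMyb308-like replicate 1 and 2.79 or below elsewhere. The counts extend gene ends downstream and the strand of these genes is not given in the annotation used here, so reads shared between close neighbours cannot be told apart from a shared pattern.

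Outside the set, the genes most like the most frequent combination were LOC116215063, with a correlation of 0.98 to its mean profile over the 8 libraries, LOC116201878 with 0.97 and LOC116203936 with 0.97. LOC116215063 never fell below 25.3 and reached 204, so that it had no off state.

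The on threshold was drawn through a continuous range of values, while values near the off threshold go in steps of 1 count. Just inside the on threshold were LOC116210640, with a second highest value of 32.0, and LOC116204562, with 32.7. Just outside were LOC116199202 with 29.9 and LOC116215842 with 29.7. LOC116195823 and LOC116212905 were just inside the off threshold, with a second lowest value of 0.69, which is 1 count in EV replicate 3. LOC116205978 and LOC116203079 were just outside with 1.03, the value of 1 count in PgMyb308-like replicate 2. A single count was off only in the deepest libraries, EV replicate 3, PgMyb308-like replicate 3 and line 1712 replicate 1. In the shallower libraries off meant 0 counts. With an on threshold of 20 the set held 102 genes, and with 50 it held 22. LOC116210640 also overlaps a pseudogene, LOC116212556, that is not in the count table. Removing the shallowest library, PgMyb308-like replicate 1, left 25 genes, and removing PgMyb308-like replicate 3 left 24.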

How the data were processed

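RNA from 8 hairy root libraries was measured by TranSeq. The authors aligned reads to the pomegranate genome (assembly ASM765513v2) with STAR 2.4.2a and counted them per gene, near annotated ends extended downstream, with HTSeq 0.6.1p1. The deposited count table holds these raw counts. The deposited normalized table, treated here as a signal that is never negative, holds those values after scaling of each library by its own factor. The factors matched median-of-ratios factors recomputed here within 0.000796%. Neither table holds columns of the authors' own comparisons.

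The on-off genes, gene lists and tests were chosen with earlier results of these data known. Genes named were those of the 10 highest values, of the most frequent combinations (up to 3 each), next to the thresholds and most like the most frequent combination; others are named after their values were seen. Pairs by protein identity and protein motif classes, also planned, were not run because no sequences were at hand. Identifiers were matched to the RefSeq gene table of the same assembly (18820 of 18831). Correlations used log2(normalized count + 1). A single fit of 3 groups was run with edgeR 4.0.16 (R 4.3.3; TMM, filterByExpr with a minimum count of 10 and total of 15) and, as an alternative, DESeq2 1.42.0, and the fitting script was tested on simulated data. Standard errors for edgeR are the log2 fold change divided by the square root of its F value. Within-group pairs of libraries differed by more than sampling noise, with a chi-square per degree of freedom of 8.34 to 34.7. Replicates are separate roots, and p-values set a difference between groups against the spread between roots, estimated over all 3 groups together. Alternatives covered the thresholds, scaling, depth, filter, DESeq2, a replicate block and each library left out.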

Additional observations from a re-analysis of the deposited data

How the results depend on the processing

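The number of genes in the set followed the thresholds, as their construction implies: 102 with on at 20 or more, 22 with on at 50 or more, 84 with off at 2 or less and 7 with 3 libraries required on and 3 off. It was 41 with off at exactly 0, 56 with TMM library sizes (51 of the 52 kept) and 57 with library totals alone (51 kept). Thinning to the smallest total gave 32 genes on its own lower scale (20 kept) and 54 on the scale of the deposited table (46 kept), the latter chosen after seeing the data. Leaving out 1 library gave 24 to 44 genes. LOC116209318 and LOC116208979 stayed in the set under all 17 of these changes other than the added thinning, including those of each library left out and the genes split by construct kept (68 genes). An on threshold of 20, an off threshold of 2 and keeping the split genes only loosen the rule. They kept all 52 genes by construction.

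Between PgMyb308-like and EV, line 1712 and EV, and PgMyb308-like and line 1712, edgeR called 0, 0 and 0 of the 52 genes. DESeq2 called 5, 2 and 1 of them, and the cause of that gap was not tested. Over all 15957 genes tested the calls numbered 6, 1 and 0 by edgeR and 200, 79 and 12 by DESeq2. Leaving out 1 library gave 0 to 7, 0 to 2 and 0 to 0 of the 52 genes. Median-of-ratios scaling, no filter on low counts and no fold change threshold each gave 0, 0 and 0 of the 52 genes. Replicate numbers did not pair the libraries (correlations of same-numbered deviations -0.24, 0.07 and -0.27), and a replicate block also gave 0, 0 and 0. At the shallowest depth a level below a normalized count of 5.46 cannot be told from 0.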

Other observations

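Near the set lay 148 genes that were on in at least 2 libraries and off in exactly 1, and 558 genes that had at least 30 in some library and at most 1 in another. Over all listed genes PgMyb308-like replicate 1 and EV replicate 1 had 206 genes in opposite states.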
